A study of Mus musculus with 9 samples.

Results

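The genes described here are 38 genes of the synaptic vesicle and its release machinery, taken by symbol from a table of 38195 gene symbols measured in the hypothalamus of mouse embryos. All 38 were found, each once, and 37 of them passed the filter on low values (1 FPKM or more in 3 or more of the 9 libraries). FPKM counts the fragments of a gene per kilobase of transcript, scaled to the number mapped in that library, so levels can be compared between genes. Sv2b did not pass, with values between 0.207 and 1.42 FPKM.

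Synaptic vesicles carry neurotransmitter to the presynaptic membrane. There a vesicle SNARE protein (Vamp) and membrane SNAREs (Stx1a and Snap25) zip together, a synaptotagmin senses the calcium that enters with each impulse, and active zone scaffolds hold the vesicle near the calcium channels. After fusion the membrane is taken back by endocytosis. Many of these genes are switched on as progenitors of the ventricular zone give rise to neurons, which migrate outward into the mantle zone, often before any synapse has formed, and some also serve growth cones, hormone granules or transport inside non-neuronal cells.

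The series holds 9 mRNA libraries from microdissected CD-1 mouse hypothalamus at embryonic stage E12.5, with 3 libraries each from the ventricular zone, from the medial and from the lateral mantle zone. CD-1 is an outbred strain, and the labels name no mutation, transgene or treatment for any of the 9 libraries. Libraries carry the numbers 1 to 3 in each zone, and per-zone values below follow that order. The labels do not say whether libraries came from separate embryos, so the p-values cover the spread among these libraries alone, and some of it may be technical.

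Several libraries stood apart and bear on every result. Ventricular replicate 3 and medial replicate 3 were shallow: the size of the smallest steps in their values corresponds to about 261258 and 539556 fragments, against 4420161 to 8817318 in the other 7. One fragment on a 2 kb transcript was then worth 1.91 and 0.927 FPKM in those 2 libraries. Ventricular replicate 2 was closer to the medial zone than the other ventricular libraries were: its sum over 22 pan-neuronal genes outside the vesicle list was 4522 FPKM, against 2099 and 1583 in ventricular replicates 1 and 3 and 4387 to 5330 in the medial zone. Its sum over 14 progenitor genes was 1079 FPKM, against 1941 and 2488 in the other ventricular libraries, 1039 to 1223 medially and 91.4 to 132 laterally. Among regional markers of the hypothalamus, Nkx2-1 lay between 11.7 and 191 FPKM and Otp between 42.4 and 467 FPKM over the 9 libraries, while the progenitor gene Rax was listed at 0 in all lateral libraries and at 3.46 FPKM or more in the others. Globin and other red cell genes (9 genes) summed to 416 to 774 FPKM laterally and to 1706 to 3173 FPKM elsewhere, and 10 microglial genes summed to 38.7 to 56.7 FPKM laterally and 13.02 to 29.9 FPKM elsewhere. The 8 genes listed for meninges and mesenchyme summed to 3.48 to 9.33 FPKM laterally and 14.7 to 32.5 FPKM elsewhere. Outside the lateral zone this sum was mostly Foxd1, which, like the progenitor genes, was lowest laterally. Foxd1 stood at 0.732 to 1.93 FPKM laterally, 9.12 to 28.1 in the ventricular zone and 21.5 to 26.5 medially. Col1a1 and Col1a2 overlapped between all zones, so the sum is not a measure of meninges. Over the 9 libraries 10 endothelial genes summed to 10.9 to 83.6 FPKM and 7 cranial ganglion genes to 0.79 to 15.8 FPKM. The part of these differences in the results below was not tested.

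Most vesicle and release genes were lower in the ventricular zone than laterally. Of 37 tested, 23 were lower in the ventricular zone at an adjusted p under 0.05, none was higher and 14 did not pass (limma on log2(FPKM + 1), Benjamini-Hochberg adjustment over 14004 genes). Over all genes tested, 8.93% were lower and 10.7% higher, 19.6% in either direction. The median log2 difference was -1.66 over the 37 genes and 0.05 over all genes. Over the 37 genes it was -1.19 without ventricular replicate 3 or without the 2 shallow libraries. Without ventricular replicate 2 it was -2.1, so its size depends on single ventricular libraries. In 28 of the 37 all 3 ventricular libraries were below all 3 lateral ones, against 19.9% of all genes, and 2 (Syt11 and Sypl) had all ventricular libraries above, against 25.2%. Single libraries moved the number of calls: it was 5 without lateral replicate 2 (2.61% of all genes were then lower), 8 and 11 without lateral replicates 1 and 3 (2.01% and 3.24%), 9 without ventricular replicate 1 (2.73%) and 15 without medial replicate 1 or 2 (6.56% and 6.26%). Without ventricular replicate 2 it was 28, of which 27 were lower, when 14.3% of all genes were. Rab3b, Snap25, Syt4, Rab3a and Syp remained called with each of the 9 libraries left out in turn. The calls of Syt7, Cplx1, Doc2b and Rab3c were kept in 2, 2, 2 and 1 of these 9 fits. Those of Syt1, Bsn, Amph and Stx1a were kept in 3 each, and those of Syn1, Syngr1 and Dnm1 in 5 each. The remaining calls were kept in 6 to 8. In bulk tissue, fewer cells that express a gene and less of its RNA per cell cannot be told apart.

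For these 23 genes the ventricular mean was 19.1% to 57.7% of the lateral mean, with a median of 28.8%, and the medial mean was 32.6% to 104% of it, with a median of 55.3%. The means rose from the ventricular through the medial to the lateral zone in 30 of 37 genes, against 24.9% of all genes tested. In 5 of 37 genes, against 1.77% of all, the levels rose with no overlap between any of the zones: Syp, Snap25, Rab3a, Rab3b and Napb. Spread between replicates was uneven: the median SD was 54.9% of the mean in the ventricular zone, 16.7% in the medial and 13.1% in the lateral zone.

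**Figure D1:**
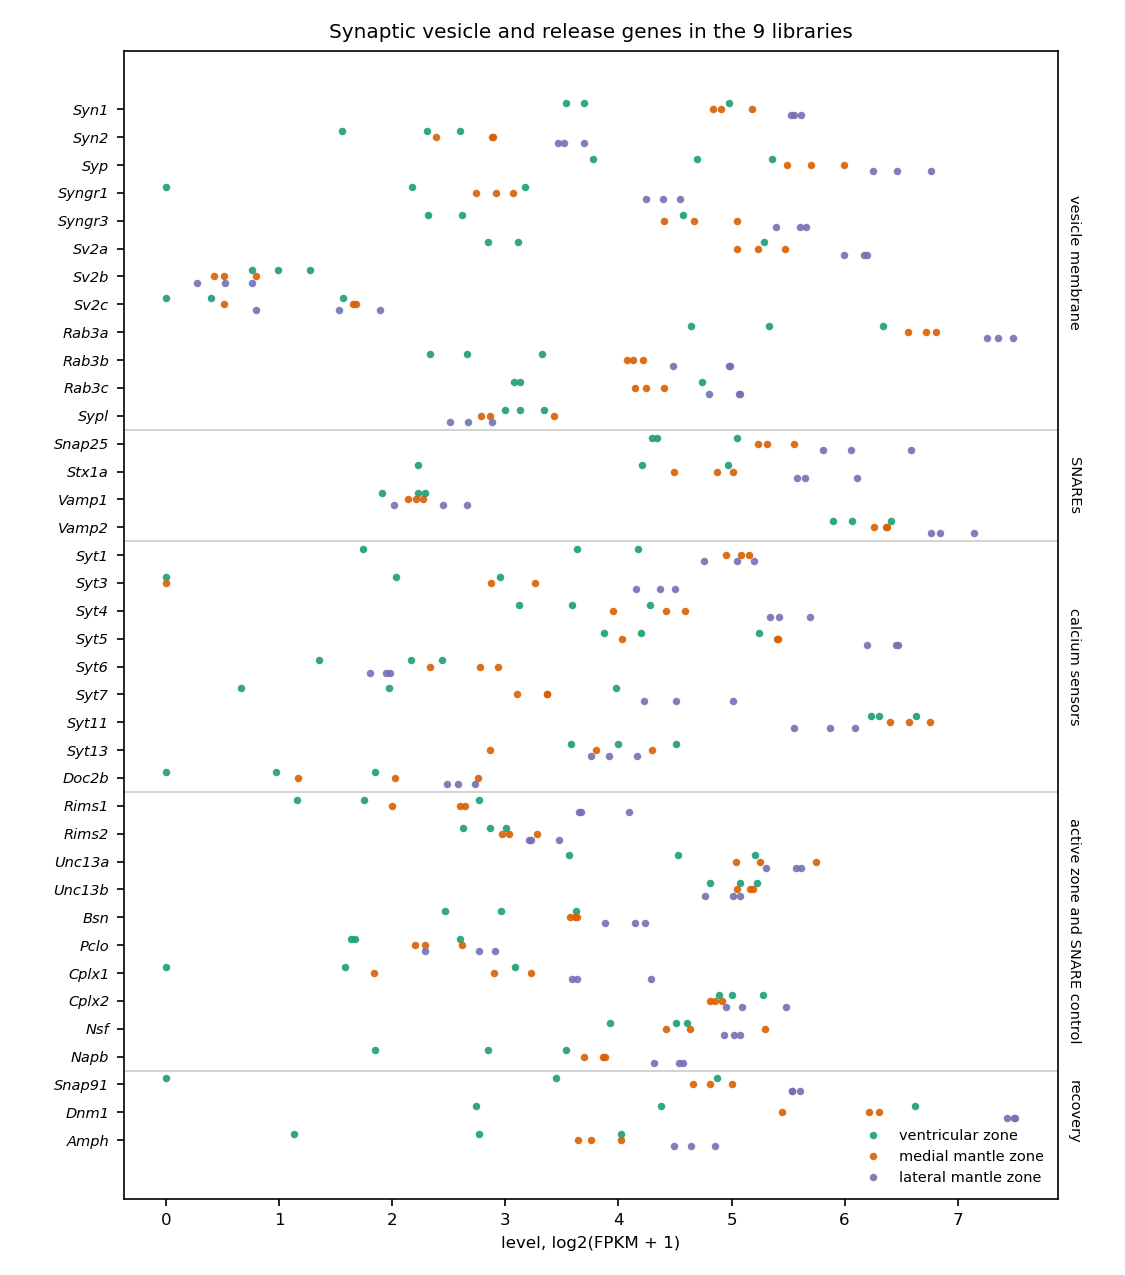
Level of each of the 38 genes in each library, as log2(FPKM + 1) on the horizontal axis, with one point per library coloured by zone and genes grouped by role. For most genes the lateral points lie to the right in a tight group, and the ventricular points are spread over a wider range that reaches 0 for 6 genes in replicate 3.

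Of the 12 proteins of the vesicle membrane and its surface, 9 of the 11 tested were lower in the ventricular zone, and the median difference over the 11 was -1.88 (log2). Syp (synaptophysin, the abundant membrane protein used to mark vesicles, chromosome X from 7638471 to 7653256 in GENCODE M21 on GRCm38, as for the gene spans below) stood at 24.9, 40.1 and 12.7 FPKM in the ventricular zone, 62.7, 43.96 and 51.2 medially and 108, 86.99 and 74.97 laterally. The zones did not overlap, and the ventricular-minus-lateral difference was -1.88 ± 0.35 (log2, SE; adjusted p = 0.00742). Its relative Sypl (pantophysin, found in transport vesicles of many tissues) went the other way in level, at 9.16, 6.98 and 7.74 FPKM in the ventricular zone, 6.26, 5.89 and 9.78 medially and 5.37, 4.68 and 6.36 laterally. All ventricular values of Sypl were above all lateral ones, but the difference of 0.47 ± 0.26 did not pass (adjusted p = 0.226).

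Rab3 GTPases tether vesicles to the release site. Rab3a (chromosome 8 from 70754679 to 70758677) was among the highest of the 38, at 39.1, 80.00 and 24.00 FPKM in the ventricular zone, 111, 93.1 and 104 medially and 179, 163 and 152 laterally. Its difference was -1.93 ± 0.34 (adjusted p = 0.0063), a 3.45-fold higher lateral mean. Rab3b (chromosome 4 from 108879063 to 108943324) was lower throughout, at 5.31, 9.03 and 4.05 FPKM in the ventricular zone, 15.8, 16.5 and 17.5 medially and 30.7, 21.3 and 30.5 laterally, with tight medial values. It had the smallest adjusted p of the 38 genes, with a difference of -2.04 ± 0.27 (adjusted p = 0.00183). Rab3c stood at 7.42, 25.6 and 7.73 FPKM in the ventricular zone, 20.1, 16.7 and 17.96 medially and 32.4, 32.6 and 26.9 laterally. Here ventricular replicate 2 lay above every medial library, and the difference was -1.33 ± 0.39 (adjusted p = 0.0405). Of the 23 calls, Rab3c was the one lost without the 2 shallow libraries (-1.07, adjusted p = 0.0832), and it held in 7 of the 20 alternatives other than centring on pan-neuronal genes.

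Synapsins tie vesicles to the cytoskeleton in the reserve pool. Syn1 stood at 11.9, 30.6 and 10.6 FPKM in the ventricular zone, 35.4, 29.02 and 27.5 medially and 47.8, 46.01 and 44.9 laterally, and Syn2, at lower levels, at 3.95, 5.05 and 1.94 FPKM in the ventricular zone, 6.42, 4.22 and 6.37 medially and 11.9, 10.04 and 10.4 laterally. Lateral libraries were above all others for both genes, and ventricular replicate 2 reached the medial range. The ventricular-minus-lateral differences were -1.49 ± 0.33 for Syn1 (adjusted p = 0.016) and -1.40 ± 0.31 for Syn2 (adjusted p = 0.016).

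Syn1 is shown at sequence level because, of the members with a promoter in the RefSeq table (GRCm38.p6), it alone held the cAMP response element letters TGACGTCA, and it held the left arm, TTCAGCACC, of the RE1 element bound by the neuronal gene repressor REST. The table gave promoters (250 bases before to 50 after the start) for 29 of the 38 genes, 38 promoters in all. Both strands were searched. Capitals mark these letters in the bases furthest upstream, on the minus strand at chrX:20921005-20921168.
Syn1: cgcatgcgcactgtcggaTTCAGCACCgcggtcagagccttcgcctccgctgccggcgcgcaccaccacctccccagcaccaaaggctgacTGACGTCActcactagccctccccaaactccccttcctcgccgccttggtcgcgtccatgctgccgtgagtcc
The RE1 arm began 232 bases before the start and was followed, 2 bases on, by letters that differ from the right arm of the searched RE1 at 2 positions. The left arm was present in 0.371% of all 32851 promoters and the cAMP response element in 1.79%. Unc13a, which primes vesicles for fusion, held both arms on the strand opposite to the gene, 8 bases apart, at chr8:71671727-71671753. Both arms, on either strand and at any distance from each other, were in 0.0152% of all promoters.
Unc13a: GGCGCTGTCCgcgcccccGGTGCTGAA
In this gene-strand view the right arm comes first, in reverse complement, from base 5 after the start. The Sp1 letters GGGCGGG were in 21 of the 38 member promoters (18 of 29 genes) and in 25.6% of all. A match is a description of letters, and no binding was measured here.

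Synaptogyrins are small membrane proteins of the vesicle. Syngr3 stood at 5.12, 22.8 and 3.99 FPKM in the ventricular zone, 24.4, 20.1 and 32.03 medially and 47.8, 49.6 and 41.1 laterally, and its difference was -2.39 ± 0.50 (adjusted p = 0.0122). Syngr1 stood at 3.51, 8.02 and 0 FPKM in the ventricular zone, 6.57, 5.69 and 7.37 medially and 20.00, 22.3 and 17.97 laterally. It was listed at 0 in ventricular replicate 3, where 3 fragments, the limit that a count of 0 allows for counting error alone, would be worth 2.75 FPKM on its longest transcript. Both were several-fold higher laterally than in ventricular replicates 1 and 3, and Syngr1 passed as well (-2.61 ± 0.64, adjusted p = 0.0227).

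Sv2 proteins are transporter-like glycoproteins of the vesicle. Sv2a (chromosome 3 from 96181151 to 96195521), the binding site of the drug levetiracetam, stood at 7.63, 38.1 and 6.18 FPKM in the ventricular zone, 43.5, 36.5 and 32.03 medially and 72.5, 71.3 and 62.8 laterally. Ventricular replicate 2 was about level with the medial zone, while replicates 1 and 3 were far below it, and the ventricular-minus-lateral difference was -2.38 ± 0.52 (adjusted p = 0.0154). Sv2c ranged from 0 to 2.71 FPKM, was listed at 0 in ventricular replicate 3 and did not pass (-0.75 ± 0.51, adjusted p = 0.314). Sv2a was thus the main Sv2 gene in all zones on the FPKM scale.

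Of the 4 SNARE genes, 3 were lower in the ventricular zone than laterally. Snap25 (chromosome 2 from 136713453 to 136782428), a membrane SNARE, stood at 19.2, 32.03 and 18.7 FPKM in the ventricular zone, 45.8, 38.9 and 36.5 medially and 95.4, 55.1 and 65.4 laterally. The zones did not overlap, and the difference was -1.59 ± 0.26 (adjusted p = 0.00434). Stx1a (syntaxin 1A, its partner on the same membrane) stood at 17.5, 30.3 and 3.68 FPKM in the ventricular zone, 31.3, 28.2 and 21.5 medially and 49.3, 68.1 and 46.8 laterally. Its ventricular libraries were the more scattered, and the difference was -1.98 ± 0.56 (adjusted p = 0.0371). Vamp2 (synaptobrevin 2, the vesicle SNARE of fast release) was high in every zone, at 66.05, 84.1 and 58.7 FPKM in the ventricular zone, 81.8, 81.7 and 75.7 medially and 108, 141 and 114 laterally. Its change was small for a called gene, -0.79 ± 0.17 (adjusted p = 0.0137), with a lateral mean 1.73-fold the ventricular one. Vamp1 was low throughout, at 3.44 ± 0.606, 3.62 ± 0.206 and 4.28 ± 1.16 FPKM in the 3 zones (SD, n = 3), and did not pass (-0.23 ± 0.27, adjusted p = 0.566).

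Among 9 calcium sensor genes, Doc2b and the synaptotagmins, 5 were lower in the ventricular zone than laterally and 4 did not pass. Syt1, the calcium sensor of fast synchronous release, stood at 11.4, 17.04 and 2.35 FPKM in the ventricular zone, 32.9, 34.6 and 30.01 medially and 32.1, 26.1 and 35.7 laterally. Its medial and lateral values overlapped (0.06 ± 0.51 for medial minus lateral, adjusted p = 0.962). The ventricular-minus-lateral difference was -1.82 ± 0.51 (adjusted p = 0.0337). Syt4, a synaptotagmin of dense-core vesicles that lacks part of the calcium-binding residues, stood at 11.02, 18.4 and 7.67 FPKM in the ventricular zone, 23.03, 20.4 and 14.4 medially and 39.4, 50.8 and 41.9 laterally. Its medial values lay near the ventricular ones and the lateral ones stood clear of both, with a difference of -1.82 ± 0.30 (adjusted p = 0.00445).

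Syt5 had the highest lateral level of the called synaptotagmins, at 17.4, 36.7 and 13.6 FPKM in the ventricular zone, 41.6, 41.3 and 15.4 medially and 86.5, 87.5 and 72.2 laterally. Medial replicate 3, a shallow library, fell into the ventricular range, and the difference was -1.93 ± 0.42 (adjusted p = 0.0146). Syt7, a slow, high-affinity calcium sensor, stood at 2.92, 14.7 and 0.5796 FPKM in the ventricular zone, 9.31, 9.300 and 7.61 medially and 21.8, 31.3 and 17.7 laterally. Ventricular replicate 2 was above every medial library, and the difference was -2.38 ± 0.67 (adjusted p = 0.0348). The Syt7 value in ventricular replicate 3, a shallow library, was below the 1.91 FPKM of 1 fragment on a 2 kb transcript and rests on very few fragments. Doc2b, a soluble sensor linked to spontaneous release, stood at 0.961, 2.59 and 0 FPKM in the ventricular zone, 5.77, 3.06 and 1.24 medially and 5.66, 4.99 and 4.59 laterally. It was listed at 0 in ventricular replicate 3, where 3 fragments would be worth 2.63 FPKM, and passed narrowly (-1.66 ± 0.52, adjusted p = 0.0494).

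Other synaptotagmins followed another order. Syt11 (chromosome 3 from 88744700 to 88775164), which does not sense calcium and acts in membrane uptake and vesicle traffic, was the highest synaptotagmin in the ventricular and medial zones, at 78.2, 74.1 and 98.3 FPKM in the ventricular zone, 94.1, 83.4 and 107 medially and 67.1, 45.9 and 57.6 laterally. Each ventricular and medial library was above each lateral one. The differences were 0.55 ± 0.19 for ventricular minus lateral (adjusted p = 0.0628) and 0.74 ± 0.19 for medial minus lateral (adjusted p = 0.0582), and neither passed. The ventricular-minus-lateral difference of Syt11 did pass, as higher ventricularly, with array weights, quantile normalization, a replicate block or without ventricular replicate 2 (adjusted p from 0.0216 to 0.0477). Syt13 stood at 14.9, 21.7 and 10.96 FPKM in the ventricular zone, 18.7, 12.9 and 6.29 medially and 12.52, 16.9 and 14.1 laterally, with overlap between all zones (0.08 ± 0.37, adjusted p = 0.893). Syt6 was highest medially, at 5.51 ± 1.35 FPKM, against 3.16 ± 1.46 in the ventricular and 2.76 ± 0.2396 in the lateral zone (SD, n = 3). All medial values of Syt6 were above the lateral ones, and no difference passed (0.77 ± 0.34, adjusted p = 0.232).
Syt3 stood at 3.099, 6.76 and 0 FPKM in the ventricular zone, 6.33, 8.599 and 0 medially and 16.8, 21.6 and 19.7 laterally, listed at 0 in both shallow libraries. There 3 fragments would be worth 4.37 FPKM (ventricular) and 2.12 FPKM (medial). The ventricular-minus-lateral difference of -2.68 ± 0.90 did not pass (adjusted p = 0.0631), and without the 2 shallow libraries it was -1.85 and passed (adjusted p = 0.00411), when 12.4% of all genes were lower.

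Of 10 active zone proteins and SNARE regulators, 4 were lower in the ventricular zone and 6 did not pass, with a median difference of -0.88. Rims1, a scaffold that joins Rab3 to calcium channels, stood at 2.37, 5.79 and 1.24 FPKM in the ventricular zone, 5.24, 5.04 and 3.004 medially and 11.7, 16.1 and 11.6 laterally. Lateral values were clear of all others (-1.91 ± 0.41, adjusted p = 0.0132). Rims2, its paralog, was flatter, at 6.15 ± 0.933, 7.57 ± 0.979 and 8.91 ± 1.05 FPKM (SD, n = 3), and did not pass (-0.47 ± 0.23, adjusted p = 0.167). The large scaffold Bsn (bassoon) stood at 6.797, 11.4 and 4.54 FPKM in the ventricular zone, 11.3, 10.9 and 11.4 medially and 16.7, 17.9 and 13.7 laterally and was lower in the ventricular zone (-1.07 ± 0.29, adjusted p = 0.031). Pclo (piccolo), the partner of Bsn, was at 3.11 ± 1.68, 4.202 ± 0.813 and 5.402 ± 1.35 FPKM (SD, n = 3), with overlap between zones (-0.69 ± 0.34, adjusted p = 0.176).

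Munc13 proteins open syntaxin so that SNARE complexes can form. Unc13a stood at 22.02, 35.8 and 10.8 FPKM in the ventricular zone, 31.9, 37.2 and 52.7 medially and 38.4, 46.4 and 47.9 laterally. The ventricular libraries were below the lateral ones without overlap, but the difference did not pass (-1.06 ± 0.37, adjusted p = 0.0682). Unc13b stood at 36.5, 32.6 and 27.1 FPKM in the ventricular zone, 35.6, 32.1 and 34.9 medially and 26.2, 32.6 and 31.2 laterally. Its values overlapped between all 3 zones (0.09 ± 0.17, adjusted p = 0.732), with a 95% interval for the difference from -0.29 to 0.46.

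Complexins clamp and then assist the assembled SNARE complex. Cplx1 stood at 1.998, 7.48 and 0 FPKM in the ventricular zone, 8.34, 6.45 and 2.58 medially and 11.4, 18.6 and 11.01 laterally, was listed at 0 in ventricular replicate 3 (3 fragments would be worth 5.25 FPKM) and was lower in the ventricular zone (-2.28 ± 0.69, adjusted p = 0.0443). Cplx2 stood at 31.04, 37.8 and 28.6 FPKM in the ventricular zone, 27.97, 27.01 and 29.2 medially and 29.8, 33.1 and 43.8 laterally. All 9 libraries held at least 27.0 FPKM of Cplx2, and its difference was small (-0.12 ± 0.19, adjusted p = 0.671; 95% interval -0.54 to 0.30).

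Nsf and its adaptor Napb take spent SNARE complexes apart. Napb (beta-SNAP, enriched in brain) stood at 6.17, 10.6 and 2.59 FPKM in the ventricular zone, 13.6, 11.98 and 13.7 medially and 22.1, 22.8 and 18.9 laterally. Its zones did not overlap, and the difference was -1.73 ± 0.37 (adjusted p = 0.0133). Nsf itself, used for membrane fusion in all cells, stood at 14.1, 23.3 and 21.8 FPKM in the ventricular zone, 23.9, 20.3 and 38.3 medially and 32.7, 31.5 and 29.6 laterally. It did not pass (-0.67 ± 0.26, adjusted p = 0.101), and it did without the 2 shallow libraries (-0.75, adjusted p = 0.0298).

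Of the 38 genes, 3 act in recovery of vesicle membrane, and 2 of them passed. Dnm1 (dynamin 1, the GTPase that pinches off endocytic vesicles, chromosome 2 from 32308471 to 32353338) had the highest lateral mean of all 38 genes, at 19.7, 97.8 and 5.68 FPKM in the ventricular zone, 78.1, 73.2 and 42.5 medially and 179, 181 and 172 laterally. Its ventricular values ran from 5.68 to 97.8 FPKM, and the difference was -2.90 ± 0.76 (adjusted p = 0.0273). Amph (amphiphysin, which recruits dynamin) stood at 5.81, 15.2 and 1.18 FPKM in the ventricular zone, 15.3, 12.52 and 11.5 medially and 27.9, 24.02 and 21.5 laterally. Its order of libraries was like that of Dnm1, with a difference of -2.02 ± 0.58 (adjusted p = 0.0367). Snap91 (AP180, a clathrin adaptor) stood at 9.88, 28.2 and 0 FPKM in the ventricular zone, 31.1, 27.05 and 24.3 medially and 47.7, 45.4 and 45.2 laterally. It was listed at 0 in ventricular replicate 3, where 3 fragments would be worth 2.14 FPKM, and did not pass (-2.79 ± 0.95, adjusted p = 0.0652). Without the 2 shallow libraries Snap91 passed (-1.40, adjusted p = 0.0221).

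**Figure D2:**
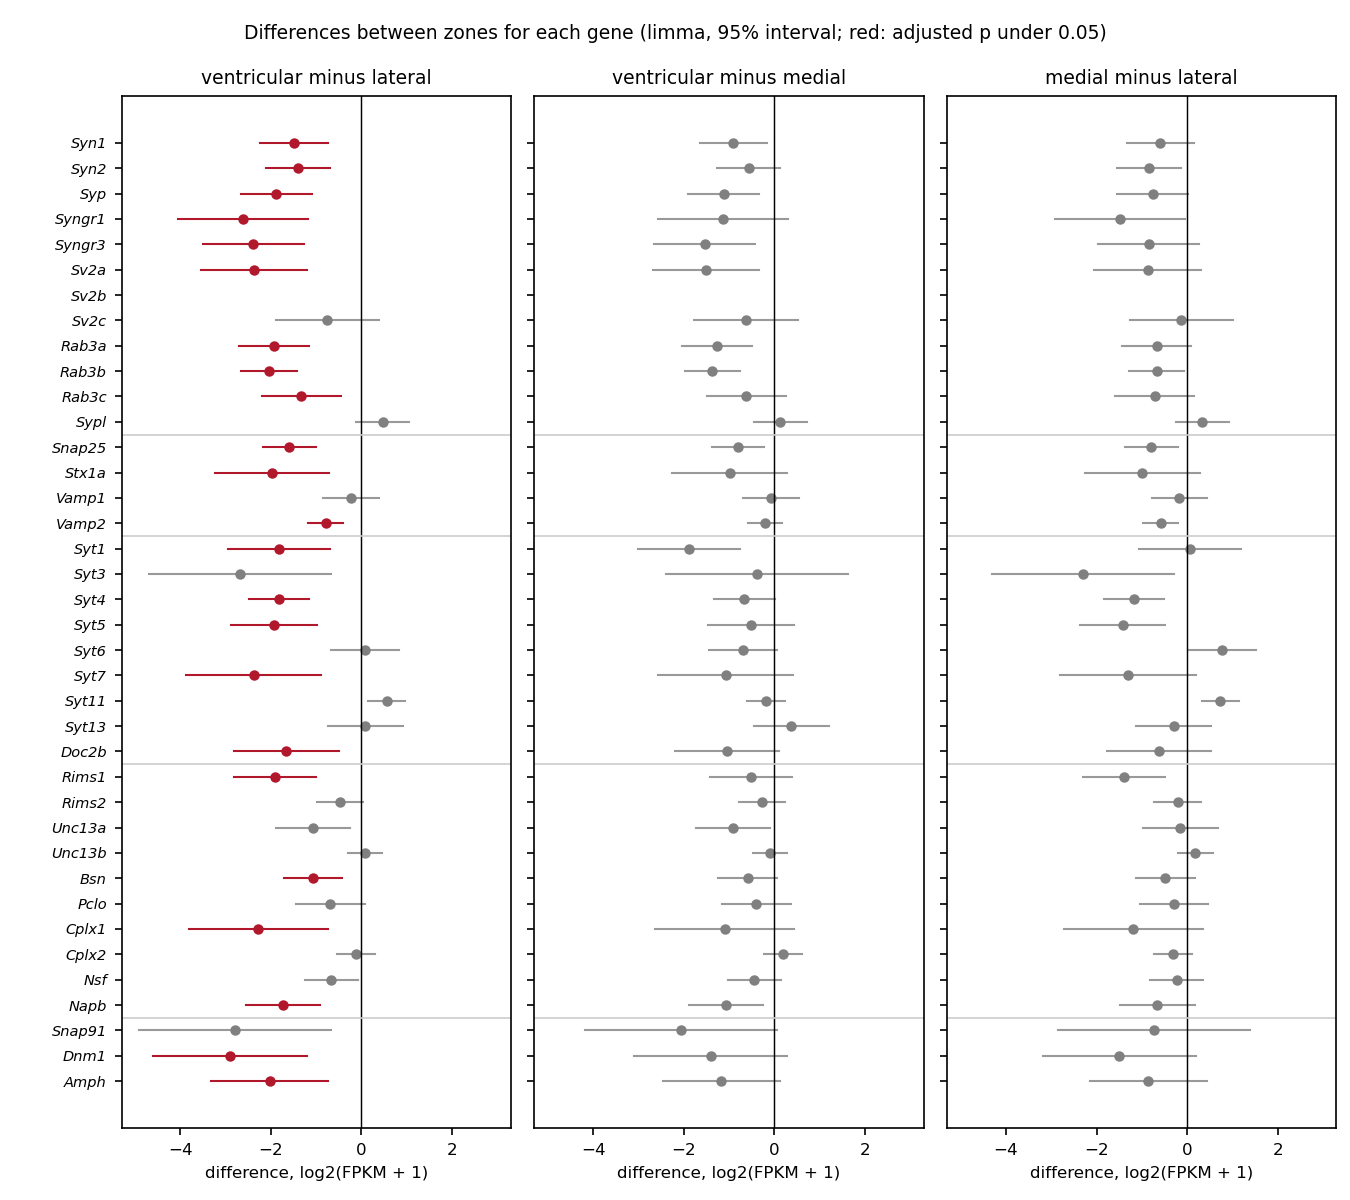
Difference in log2(FPKM + 1) between zones for each gene tested, in 3 panels (ventricular minus lateral, ventricular minus medial, medial minus lateral), with the 95% interval from limma as a line and calls in red. In the first panel 23 genes are red and all lie left of 0, and no gene is red in the other 2 panels.

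The medial mantle zone lay between the other 2 for most genes, and no gene of the list passed against either neighbour. Against the ventricular zone, 0 of 37 and 0% of all 14004 genes passed by limma (unadjusted p under 0.05 in 10 of 37 and in 11.9% of all). The median difference, ventricular minus medial, was -0.69 over the 37 genes and -0.05 over all. All ventricular libraries were below all medial ones for 6 genes, against 9.3% of all genes tested, and above them for none, against 5.36%. The 6 were Syp (-1.12 ± 0.35, adjusted p = 0.393), Snap25 (-0.81 ± 0.26), Syt1 (-1.88 ± 0.51), Rab3a (-1.26 ± 0.34), Rab3b (-1.37 ± 0.27, adjusted p = 0.223) and Napb (-1.07 ± 0.37). The ventricular and medial values of the other 31 overlapped.

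Ventricular replicate 2 bore on much of that overlap. It was the highest ventricular library for 32 of the 38 genes and at or above the lowest medial library for 30, yet below all lateral libraries for 29. Replicates 1 and 3 were below all medial libraries for 29 and 31 genes. These counts per library were not made over all genes tested, so they describe the libraries and not a trait of the list. Without replicate 2, 13 genes were lower in the ventricular zone than medially, when 3.37% of all genes were: Syn1, Syp, Syngr3, Snap25, Syt1, Syt7, Sv2a, Rab3a, Rab3b, Rab3c, Napb, Dnm1 and Amph. The differences ran from -2.43 (Dnm1, adjusted p = 0.0226) to -1.05 (Snap25, adjusted p = 0.0464).

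Against the lateral zone, 0 of 37 passed while 4.12% of all genes did (0.543% lower medially and 3.58% higher), and an unadjusted p under 0.05 was seen in 11 of 37 and in 20.6% of all. The median difference, medial minus lateral, was -0.67 over the 37 genes and 0.10 over all. All medial libraries were below all lateral ones for 24 genes, against 14.8% of all, and above them for Syt6 and Syt11, against 25.7%. The smallest adjusted p values were 0.0582 for Syt11 (0.74 ± 0.19), 0.0612 for Syt4 (-1.17 ± 0.30) and 0.0938 for Vamp2 (-0.58 ± 0.17). Fitted on these 2 zones alone, which leaves the scattered ventricular libraries out of the estimate of spread, 20 genes were lower medially and 1 (Syt11) higher, when 5.29% and 9.18% of all genes were. With all zones in the fit and ventricular replicate 2 left out, 7 genes were lower medially and 1 (Syt11) higher, when 1.68% and 4.67% of all genes were. Without ventricular replicate 3 the counts were again 7 and 1 (Syt11), when 3.08% and 9.48% of all genes were. Because each pair of comparisons shares a zone, their values are not independent.

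Summed over the 38 genes, levels came to 535, 931 and 412 FPKM in the ventricular zone, 1030.2, 921 and 906 FPKM medially and 1556, 1551 and 1428 FPKM laterally. Ventricular replicate 2 again fell in the medial range. The sum over the 22 pan-neuronal genes ordered the libraries in nearly the same way, from 1583 FPKM to 7249 FPKM. As a share of that sum, the vesicle and release genes were 25.5%, 20.6% and 26.0% ventricularly, 19.3%, 19.6% and 20.7% medially and 21.5%, 22.02% and 21.8% laterally. This share was above every lateral one in ventricular replicates 1 and 3 and below every lateral one in replicate 2. A sum of FPKM weighs high genes most. In ventricular replicate 1 the highest were Syt11 (78.2 FPKM) and Vamp2 (66.05 FPKM), so the share does not stand for each gene.

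**Figure D3:**
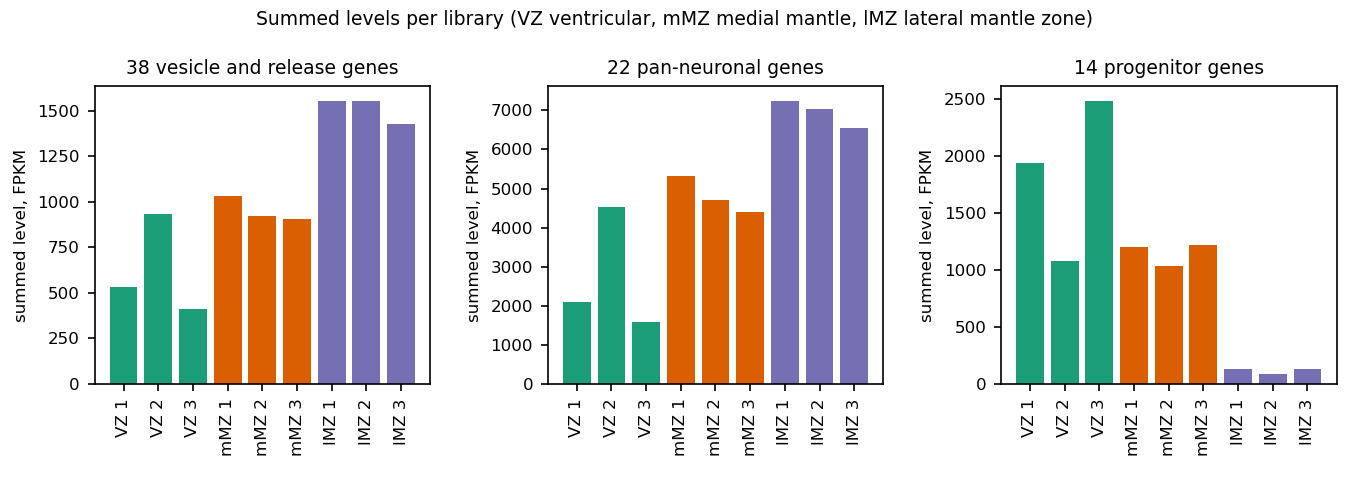
Summed FPKM per library of the 38 vesicle and release genes, 22 pan-neuronal genes and 14 progenitor genes, with bars coloured by zone and numbered by replicate. The second ventricular library stands at 931 FPKM for vesicle genes, level with the medial libraries, and the lateral libraries hold 132 FPKM or less of progenitor genes.

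Centring each library on the mean log2 level of the pan-neuronal genes gave a different split of the list. With this scaling, which moved the median of all genes to 1.45 and left 0.914% of them lower and 67% higher in the ventricular zone, the median of the 37 genes was -0.26. Relative to pan-neuronal genes, 4 were lower in the ventricular zone than laterally: Dnm1 (-1.50, adjusted p = 0.0162), Syngr1 (-1.21, adjusted p = 0.0484), Syngr3 (-0.99, adjusted p = 0.0407) and Sv2a (-0.98, adjusted p = 0.0338). Another 6 of the 37 were higher: Syt11 (1.95, adjusted p = 0.00477), Sypl (1.87), Unc13b (1.49), Syt6 (1.48), Syt13 (1.48) and Cplx2 (1.28). Centring moves every gene by the same amount, so genes of even level come out higher, as 67% of all genes did. Nothing is read from the count of 6, which is below that share. The remaining 27 did not pass, among them Syp (-0.48), Snap25 (-0.19) and Syn1 (-0.09). No gene of the list passed between the medial zone and either neighbour with this scaling. Of all genes, 0% passed between the ventricular and medial zones and 1.91% between the medial and lateral zones.

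**Figure D4:**
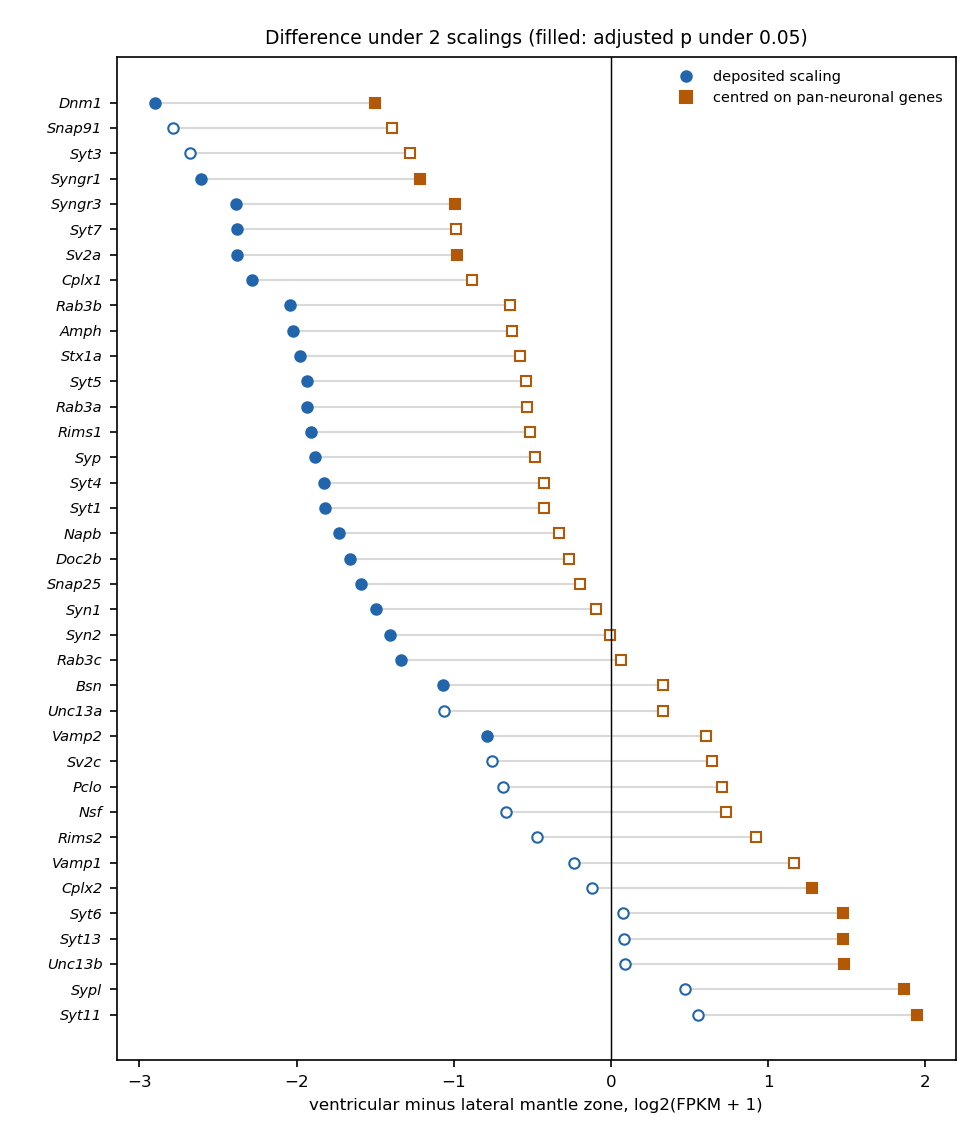
Ventricular-minus-lateral difference in log2(FPKM + 1) for each of the 37 genes tested, on the deposited scale (blue circles) and after centring on pan-neuronal genes (brown squares), with filled symbols for an adjusted p under 0.05. The squares lie to the right of the circles, and 10 of them are filled, 4 left of 0 and 6 right of it.

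Ratios between related genes were taken within each library for 10 pairs and compared over the 3 zones (exact permutation test on the F ratio of log2 ratios of FPKM + 1, with p-values adjusted over the 10). Because 1 FPKM was added, ratios that involve low genes, such as Sv2b or Cplx1, still depend on how a library is scaled. Of these 10 pairs, 2 passed. The ratio of Syp to Sypl had geometric means of 2.74 ventricularly, 6.52 medially and 13.98 laterally (exact permutation p = 0.00714, adjusted 0.0357). Sv2a over Sv2b went from 6.68 through 25.6 to 48.7 (exact permutation p = 0.00357, the smallest this design allows, adjusted 0.0357). Since 1 FPKM was added and Sv2b was near or below 1 FPKM, this second ratio largely follows Sv2a.

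The other 8 pairs did not pass. Rims1 over Rims2 was 0.522, 0.624 and 1.42, so that Rims2 exceeded Rims1 except laterally (adjusted p = 0.0714 by the exact permutation test). Unc13a over Unc13b was 0.656, 1.16 and 1.46, and Cplx1 over Cplx2 was 0.0884, 0.217 and 0.395 (adjusted p = 0.0774 for both). Rab3a over Rab3c was 3.46, 5.39 and 5.24 (adjusted p = 0.0714). Vamp1 over Vamp2 and Bsn over Pclo had adjusted p of 0.102 and 0.112. Syn1 over Syn2 was 3.78, 4.78 and 4.01, and Syngr1 over Syngr3 was 0.383, 0.288 and 0.447, the pairs with the largest adjusted p (0.479 and 0.460). No pair passed without the 2 shallow libraries or without any one mantle library, 1 passed without ventricular replicate 1 or 3, and 5 passed without ventricular replicate 2.

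**Figure D5:**
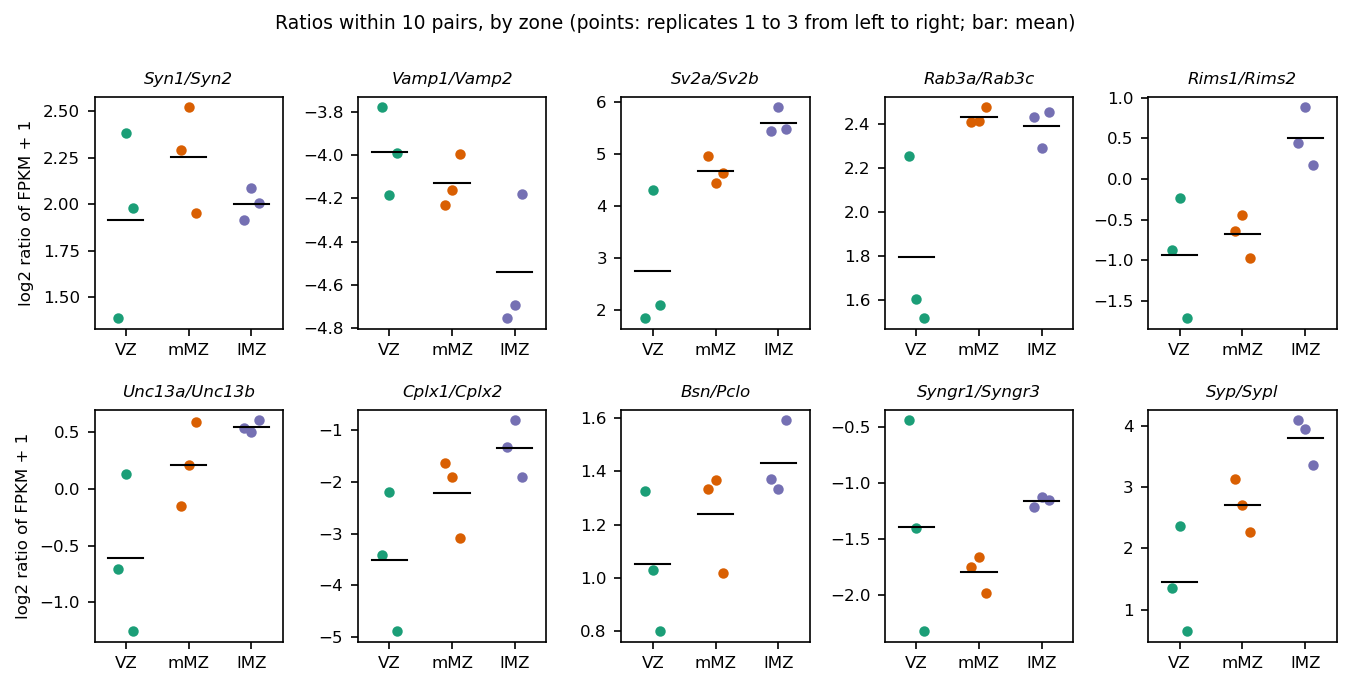
Log2 ratio of (FPKM + 1) for 10 pairs of related genes, one point per library by zone (VZ ventricular, mMZ medial mantle, lMZ lateral mantle), with the zone mean as a bar; each panel has its own vertical scale. Syp over Sypl and Sv2a over Sv2b rise from zone to zone, and Syn1 over Syn2 has overlapping zones.

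Other genes of the pathway, from 6 lists chosen with earlier results of these data known, were counted in the same way. Of 104 tested, 44 were lower and 7 higher in the ventricular zone, compared with the lateral, with a median of -0.72. The shares of all genes tested in this comparison were 8.93% lower and 10.7% higher, so the counts of higher genes per list, at most 3, are near or below that share and nothing is read from them. Active zone genes had 13 of 18 lower and 1 higher, among them Erc2 (a scaffold; -2.10 ± 0.35, adjusted p = 0.00455). Other synaptotagmins and calcium sensors had 6 of 10 lower, among them Syt16 (-2.30 ± 0.39, adjusted p = 0.00491). Recovery genes had 9 of 23 lower and 1 higher. In that list Sncg (gamma-synuclein) stood at 0.475, 1.88 and 0 FPKM in the ventricular zone, 5.79, 7.29 and 7.56 medially and 19.8, 16.9 and 15.8 laterally (listed at 0 in ventricular replicate 3), with no overlap between zones, and its difference was -3.51 ± 0.37 (adjusted p = 0.000737).

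Other SNAREs and their binding proteins had 5 of 24 lower and 3 higher. Snap47, a relative of Snap25, was lower in the ventricular zone (-1.69 ± 0.31, adjusted p = 0.00712). Snap23, the counterpart of Snap25 in most non-neuronal tissues, was higher there, at 14.9, 8.96 and 31.3 FPKM in the ventricular zone, 10.5, 10.98 and 8.92 medially and 4.77, 5.26 and 5.54 laterally (1.48 ± 0.37, adjusted p = 0.0249). Napa (alpha-SNAP), the general counterpart of Napb, did not pass (0.06 ± 0.18, adjusted p = 0.827). Other vesicle membrane and Rab proteins had 3 of 14 lower and 2 higher, and Syngr2, the synaptogyrin of non-neuronal cells, was one of those higher (1.52 ± 0.39, adjusted p = 0.0255).

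Vesicular transporters and the proton pump had 8 of 15 lower in the ventricular zone than laterally and none higher. Slc18a2 (VMAT2, which loads monoamines) was the only one of the 104 tested genes of the 6 lists called between the mantle zones, as higher medially. Of all genes tested, 3.58% were higher medially and 0.543% lower, so nothing is read from that count. Slc18a2 stood at 5.68, 7.78 and 3.94 FPKM in the ventricular zone, 12.8, 20.3 and 18.2 medially and 1.63, 2.46 and 3.17 laterally. Its medial-minus-lateral difference was 2.41 ± 0.31 (adjusted p = 0.00413). Slc32a1 (VGAT, which loads GABA and glycine) was also highest medially, at 4.604, 8.67 and 9.54 FPKM in the ventricular zone, 23.1, 18.98 and 25.1 medially and 16.8, 15.6 and 13.1 laterally. It was called only as lower in the ventricular zone than laterally (-0.95 ± 0.27, adjusted p = 0.0346), and its medial-minus-lateral difference was 0.53 ± 0.27 (adjusted p = 0.295). The pump subunit Atp6v1g2, enriched in brain, was lower in the ventricular zone (-1.94 ± 0.46, adjusted p = 0.02), and the general subunit Atp6v1g1 did not pass (-0.42 ± 0.16, adjusted p = 0.0933).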

How the data were processed

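RNA of 3 microdissected zones of CD-1 mouse hypothalamus, with 3 libraries each, was sequenced as 100 bp pairs, per the labels' protocols. The authors deposited FPKM values, 1 per gene and library. Bowtie2 2.1.0 and mm10 are named in the submitters' processing notes; the program that computed FPKM is not given in the sources used. After removal of 42 identical rows and 133 repeated symbols, 38195 symbols remained. Depth was estimated from the steps between low values of 2841 genes with 1 transcript; 60.2% to 66.1% of these values lay within 0.1 of a whole number of steps, so no count test was run.

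Zones came from the labels. limma 3.58.1 (R 4.3.3) was fitted to log2(FPKM + 1) over all 9 libraries with an intensity trend, for the 14004 genes reaching 1 FPKM in 3 or more libraries, two-sided, with Benjamini-Hochberg adjustment at 0.05; folds on this scale understate the change of low genes. Scripts were tested on simulated data. Coordinates are GENCODE M21 spans on GRCm38.

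The members and lists were chosen with earlier results of these data known. All 38 genes may be named, with values per library for those called or with a mean of at least 10 FPKM. From each other pathway list up to 3 called genes, reaching 5 FPKM in the higher zone, were eligible, by size of change, plus the gene of highest mean that did not pass. Marker lists were summed. A few genes of these lists are not reported here.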

Additional observations from a re-analysis of the deposited data

How the results depend on the processing

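Rab3b, Snap25, Syt4, Rab3a and Syp remained lower ventricularly than laterally, past the threshold, in all 20 alternatives other than centring on pan-neuronal genes (adjusted p from 9.61e-06 to 0.0389 over the 5 genes). The number of the 37 genes called in that comparison (23) became 13 with no filter (9.12% of all genes called), 14 with only the 2 zones compared (12%), 15 with a pseudocount of 0.1 (16.1%) and 10 after centring (67.9%). With array weights it was 31 (29 lower, 2 higher), and the share of all genes called went from 19.6% to 48.6%. Leaving out 1 library gave 5 (without lateral replicate 2) to 28 (without ventricular replicate 2). Between the ventricular and medial zones (0 called), array weights gave 23 when 19.7% of all genes were called, and leaving out 1 library gave 0 to 13, the latter without ventricular replicate 2. Between the medial and lateral zones (0 called), array weights gave 20 (26.4% of all genes called), only the 2 zones compared 21 (14.5%), quantile normalization 3 (5.65%) and leaving out the 2 shallow libraries 6 (11.9%). There, leaving out 1 library gave 0 to 8, the latter without ventricular replicate 2 or 3. The count of 2 pair ratios became 0 without the 2 shallow libraries, where no pair alone could pass with 210 arrangements. With 1 library left out it was 0 to 5: 5 without ventricular replicate 2, 1 without ventricular replicate 1 or 3 and 0 without any one mantle library. The cause was not tested.

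Same-numbered libraries of different zones deviated from their zone means with correlations of -0.10 to 0.25. All were above 0 except that of ventricular and lateral replicate 1. Differently numbered libraries gave -0.25 to 0.23, with both signs. The highest same-numbered value was that of the 2 shallow libraries. These values do not settle whether equal numbers share an origin, and the main fit took no pairs. With the replicate number as a block, 26 genes were called between the ventricular and lateral zones (25 lower and Syt11 higher), when 20.7% of all genes were. There were 0 between the ventricular and medial zones, when 0% of all genes were called. Between the medial and lateral zones there were 3 (2 lower and Syt11 higher medially), when 5.02% of all genes were called. With this block 0 pair ratios passed, but its 216 arrangements allow no exact permutation p below 0.0278. Sv2a over Sv2b, Unc13a over Unc13b, Cplx1 over Cplx2 and Syp over Sypl reached that limit (adjusted p = 0.0694), so this test could hardly pass a pair.

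Some ventricular-minus-lateral differences (log2) changed sign. After centring on pan-neuronal genes these were Vamp1 1.16, Vamp2 0.606, Sv2c 0.643, Rab3c 0.0638, Rims2 0.924, Unc13a 0.334, Bsn 0.330, Pclo 0.71, Cplx2 1.28 and Nsf 0.732. With trimmed-mean scaling they were Syt6 -0.0226, Syt13 -0.0445 and Unc13b -0.0435, and with quantile normalization Syt6 -0.0531 and Syt13 -0.0294. Without the 2 shallow libraries Syt6 was -0.0127. With 1 library left out, Syt6 lay between -0.146 and 0.394, Syt13 between -0.158 and 0.305, Unc13b between -0.00741 and 0.200 and Cplx2 between -0.233 and 0.0364.

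Depth limits what the 2 shallow libraries show: a value of 0 there allows several FPKM, and intervals for these genes are wide. Low values above 0 in ventricular replicate 3, such as those of Syt7, Amph, Stx1a and Napb, rest on few fragments.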
